A study of Mus musculus with 4 samples.

Results

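Krt14-high basal cells are airway basal cells, marked by the keratins Krt5 and Krt15, whose RNA is also rich in Krt14, the keratin partner of Krt5. They were picked from single-cell RNA libraries of mouse trachea as barcodes with at least 500 genes that carried, per 10000 UMIs (unique molecular identifiers, here captured RNA molecules), at least 10 of Krt5 and Krt15 together and at least 10 of Krt14, fewer than 10 of the hillock keratin Krt13, fewer than 20 of the ciliated genes Foxj1, Ccdc153, Dynlrb2 and Fam183b together, and fewer than 500 of the secretory genes Scgb1a1, Scgb3a1, Scgb3a2 and Bpifa1 together. Of 6784 barcodes in 4 libraries, 701 met this rule, and 2505 met it with Krt14 below 10 and serve as the Krt14-low basal cells here. The genes of the rule chose the cells, so their levels are a description and not a finding.

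The libraries came from adult wild type mice whose tracheal epithelium was stripped with 2% polidocanol, a detergent, and which 5 hours later received 6000000 basal cells into the trachea. One mouse, labelled strain 129 X1/S1, received iBCs, basal cells derived in culture from mouse embryonic stem cells, and was examined on day 192. The other mouse, labelled strain C57BL/6, received primary basal cells and was examined on day 69. Pronase-released cells that were positive for the live-cell dye Calcein Blue were sorted by green fluorescence into donor-derived (GFP-positive) and endogenous (GFP-negative) cells, and polyadenylated RNA was counted on the 10x Chromium system, which gives 1 library for each of the 4 groups. Every mouse was injured and transplanted, so no uninjured trachea is among the groups, and an untransplanted control trachea named in the protocol was not analysed here. Donor cell kind, day, strain and animal differ together between the recipients and cannot be told apart, and with 1 library per group no difference below has a replicate check. All intervals are 95% intervals of counting error only, exact Poisson for sums and ratios and exact Clopper-Pearson for shares, and cells of a library are not replicates.

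Basal cells are the stem cells of the tracheal epithelium. They sit on the basement membrane through hemidesmosomes, in which the integrin pair Itga6 and Itgb4 and the collagen Col17a1 bind laminin-332, and they give rise to secretory and ciliated cells. Krt14 is low in most basal cells of resting mouse trachea and is known to increase after injury, when basal cells spread, divide and rebuild the epithelium. Krt17 is a keratin of basal and injured epithelia, Cav1 is the coat protein of caveolae, and Tnfrsf12a is the receptor of the cytokine TWEAK, induced at many wound sites.

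Krt14-high cells numbered 321 among iBC-derived cells, 93 among endogenous cells of the iBC recipient, 250 among cells derived from primary basal cells and 37 among endogenous cells of the primary BC recipient. Their share of all barcodes was 20.1% (18.2 to 22.2) of 1596 iBC-derived barcodes, against 4.92% (3.99 to 5.99) of 1891 endogenous barcodes of the same trachea. It was 13.3% (11.8 to 14.9) of 1876 primary-BC-derived barcodes, against 2.60% (1.84 to 3.57) of 1421 endogenous barcodes of that trachea. The donor-derived intervals therefore lie above the endogenous interval in both recipients, and the iBC-derived interval lies above the primary-BC-derived one. Counted within the basal gate alone, whatever a cell's Krt14, members made up 45.3% (41.6 to 49.1) of 708 iBC-derived basal cells, against 11.5% (9.40 to 13.9) of 807 endogenous ones. The primary transplant gave 23.3% (20.8 to 26.0) of 1072 donor-derived basal cells, against 5.98% (4.24 to 8.15) of 619 endogenous ones. After every cell was thinned to 2500 UMIs, the shares of barcodes were 18.7% and 4.60% for donor-derived and endogenous cells of the iBC recipient, and 12.9% and 2.67% for those of the primary BC recipient. The cutoff crosses a continuous range of Krt14: 26, 23, 33 and 3 members lay just inside it, between 10 and 12 per 10000, and 33, 23, 57 and 10 Krt14-low cells lay just outside it, between 8 and 10, in the iBC-derived, iBC-recipient endogenous, primary-BC-derived and primary-BC-recipient endogenous libraries.

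**Figure D1:**
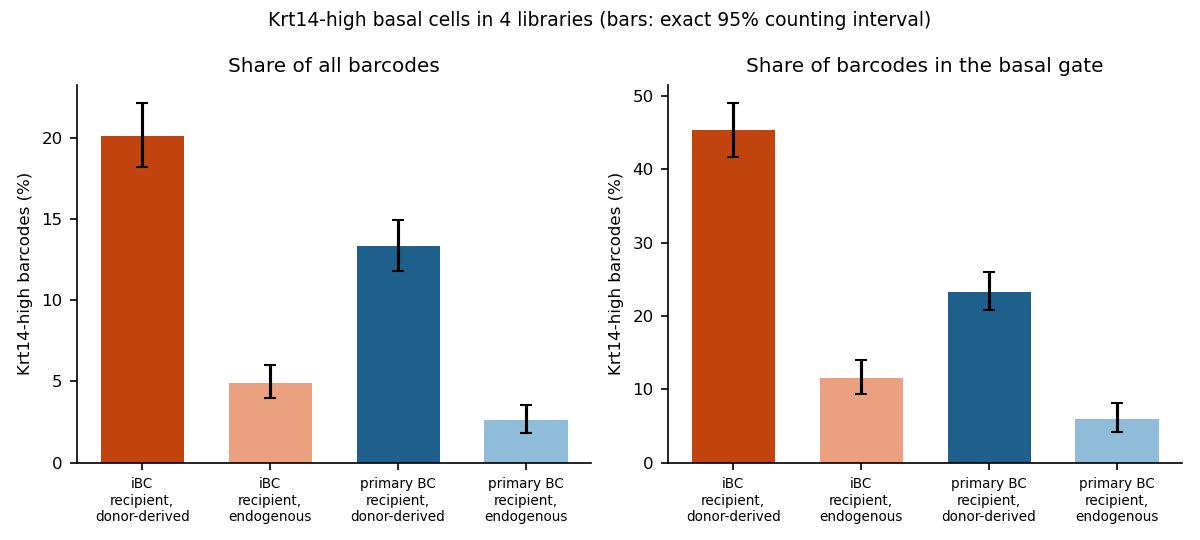
Share of Krt14-high basal cells, in percent, in each of the 4 libraries, of all barcodes and of all cells of the basal gate, with exact 95% binomial intervals. In both recipients the donor-derived share lies above the endogenous one: 20.1% against 4.92% of barcodes for the iBC recipient, and 13.3% against 2.60% for the primary BC recipient.

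The members' UMIs were summed per library, which gave 4046977, 762099, 2845662 and 554712 UMIs in the iBC-derived, iBC-recipient endogenous, primary-BC-derived and primary-BC-recipient endogenous sums, out of library totals of 21504563 to 26625123. The median member held 10256, 7856, 10480.5 and 13823 UMIs in those libraries, and the median mitochondrial share was between 3.95% and 5.82%. Over all barcodes, the iBC-derived library shared 1 barcode sequence with the primary-BC-derived and 1 with the primary-BC-recipient endogenous library, and no member's barcode occurred in more than 1 library. The GFP reporter checked the sort: EGFP_EXTRA had 72.6 CPM (a gene's UMIs scaled to a common total in every sum) in iBC-derived members, with a UMI in 156 of 321 cells, and 542 CPM in primary-BC-derived members, with a UMI in 248 of 250 cells. It had 0 UMIs in the endogenous members of both recipients, in sums where 3 UMIs make 3.94 CPM (iBC recipient) or 5.41 CPM (primary BC recipient).

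The basal label was checked against genes outside the rule. Trp63, the transcription factor that basal cells require, had 265 CPM in iBC-derived and 420 CPM in endogenous members of the iBC recipient, and 397 CPM in primary-BC-derived and 294 CPM in endogenous members of the primary BC recipient. Some single markers of other cell types had 0 UMIs, but several summed marker lists were above 0. The immune markers summed to 15.3 to 164 CPM in Krt14-high against 34.1 to 556 CPM in Krt14-low sums. Ciliated markers summed to 245 to 462 CPM against 290 to 458 CPM, and hillock markers to 596 to 1832 CPM against 377 to 1124 CPM. The ciliated and hillock lists include genes of the rule. Ptprc and Cd3e of blood cells and Col1a1 and Pdgfra of fibroblasts had 0 UMIs in all 4 sums. Gland and muscle markers were mixed. The gland gene Dcpp1 had 0 UMIs in all 4 sums, but the submucosal gland markers summed to 1000 to 1142 CPM in Krt14-high against 1238 to 1814 CPM in Krt14-low sums, of which Aqp5, a water channel, made up 991 to 1029 CPM in the Krt14-high sums. The smooth muscle gene Cnn1 had 0 UMIs in all 4 sums, but the smooth muscle and myoepithelial markers summed to 87.9 to 224 CPM in Krt14-high against 19.8 to 116 CPM in Krt14-low sums, with 1 member called higher in every library, the tropomyosin Tpm2. Dcn, a fibroblast marker, was at 431 to 749 CPM in Krt14-high against 451 to 557 CPM in Krt14-low sums of the 4 libraries. Acta2, the actin of myoepithelial and smooth muscle cells, had 3.71 CPM in iBC-derived and 2.62 CPM in endogenous members of the iBC recipient, and 0 CPM in primary-BC-derived and 30.6 CPM in endogenous members of the primary BC recipient. Sftpc, surfactant protein C of alveolar type 2 cells, had 29.2 CPM in iBC-derived members, against 0 in the other 3 sums.

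To describe what goes with Krt14 beyond the rule, each Krt14-high sum was set beside the Krt14-low sum of its own library. Differences are on the log2(CPM + 5) scale, and a gene was called where it passed 1.5-fold on that scale and the exact interval of its CPM ratio excluded 1. Because Krt14 in these same cells chose the classes, the differences are a description with no test. Of 5370 genes measured in all 4 libraries, 26 were called higher in Krt14-high cells in all 4 (0.484% of those measured) and 27 were called lower in all 4 (0.503%). The 26 include Krt14 and Krt5 and the 27 include Scgb1a1, which the rule itself used. Per library, the higher calls made up 2.91% of measured genes in iBC-derived and 5.28% in endogenous cells of the iBC recipient, and 2.42% in primary-BC-derived and 7.89% in endogenous cells of the primary BC recipient, and the lower calls made up 1.27%, 5.15%, 1.38% and 5.47% in the same libraries. The median gene lay between 0.02 and 0.05 in the 4 libraries.

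Among signalling genes, Wnt10a, a secreted Wnt ligand (chromosome 1, bases 74791516 to 74804179, GRCm38), was called higher in all 4 libraries. It had 91.7 CPM in Krt14-high and 16.6 CPM in Krt14-low iBC-derived cells, and 193 and 71.9 CPM in Krt14-high and Krt14-low endogenous cells of the iBC recipient. Wnt10a in the primary BC recipient stood at 126 and 41.6 CPM in Krt14-high and Krt14-low donor-derived cells, and 137 and 31.7 CPM in endogenous ones. The CPM ratios had intervals of 4.25 to 7.31 and 2.21 to 3.25 for donor-derived and endogenous cells of the iBC recipient, and of 2.62 to 3.51 and 3.29 to 5.61 for those of the primary BC recipient. After thinning, a Wnt10a UMI was present in 17.1% of Krt14-high and 3.88% of Krt14-low iBC-derived cells, and in 41.9% and 15% of Krt14-high and Krt14-low endogenous cells of that trachea, while in ciliated cells of the 4 libraries, which should lack it, it was present in 0% to 0.293%. Nrg1, a ligand of the ErbB receptors, was higher by 0.65 to 1.66 on the log2 scale, F2rl1, the protease-activated receptor PAR2, by 0.84 to 1.27, and the chemokine Cxcl16 by 0.70 to 1.62. Klf4, a transcription factor of epithelial barriers, was higher by 0.62 to 1.13. Wnt7b was called higher in the 3 libraries other than the primary-BC-derived one, and the Notch ligand Dll1 in the 3 libraries other than the endogenous one of the primary BC recipient.

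Other genes among the 26 act at the basement membrane and the cytoskeleton, a grouping made after the values were seen. Col17a1, the hemidesmosomal collagen, had 132 CPM in Krt14-high and 56.2 CPM in Krt14-low iBC-derived cells, 244 and 124 CPM in Krt14-high and Krt14-low endogenous cells of the iBC recipient, 287 and 158 CPM in primary-BC-derived ones, and 341 and 108 CPM in endogenous ones of the primary BC recipient. Lama3, a chain of laminin-332, was higher by 0.67 to 1.48, whereas its partner Lamb3 was called in primary-BC-derived cells alone, by 0.65. Itga6 was called higher in the endogenous cells of both recipients, by 0.94 (iBC recipient) and 1.13 (primary BC recipient). Sparc, a matrix-binding glycoprotein, was higher by 0.66 to 1.13, and Tns4, a focal adhesion protein, by 0.77 to 1.28. Ecm1, a matrix protein that is also on the hillock marker list, was higher by 0.74 to 2.75. Of measured hillock markers, 1 of 3 was called higher and 1 lower in iBC-derived cells. In endogenous cells of the iBC recipient 3 of 3 were called higher, in primary-BC-derived cells 3 of 5, and in endogenous cells of the primary BC recipient 3 of 3. The actin-binding proteins Tagln2 and Tpm2 were higher by 0.62 to 1.28 and by 0.91 to 3.25.

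Sncg, gamma-synuclein, came next after Wnt10a when genes were ranked by the smallest of their 4 differences. It had 319 CPM in Krt14-high and 143 CPM in Krt14-low iBC-derived cells, 182 and 22.4 CPM in Krt14-high and Krt14-low endogenous cells of the iBC recipient, 34.4 and 9.49 CPM in primary-BC-derived ones, and 68.5 and 5.11 CPM in endogenous ones of the primary BC recipient. Bok, a BCL2-family protein, was higher by 1.08 to 2.72, and Lmna, which encodes the nuclear lamins A and C, by 0.89 to 1.74. Serpinb5, the serpin known as maspin, was higher by 0.84 to 1.58. Cd109, a surface protein that binds TGF-beta, was higher by 0.84 to 2.58, and Clca3a2, of the CLCA family, by 0.82 to 2.77. H2-Q7, a class I histocompatibility molecule whose reads may be shared with near-identical family members, was higher by 0.84 to 1.30.

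Since these genes were higher together, the promoters of the 3 best ranked ones with an entry in the RefSeq promoter set used here are shown (GRCm38.p6, 250 bases before to 50 after the start site, 5′ to 3′). Wnt10a, ranked first, and Krt17 had no entry in that set and were passed over. Capitals mark a match to the AP-1 motif TGANTCA, read on both strands. The TEAD motif GGAATG, read likewise, had no match in any of the 3, and the motifs were present in 7.81% and 14.7% of all 32851 promoters of the same length. Lmna has 2 entries, of which the first listed is shown; it starts inside the annotated gene, and its single AP-1 match begins 39 bases past the start site. A match is a description of letters and no evidence of binding, and the promoters of Sncg and Bok hold none of these letters in this window.
Sncg, chr14:34374620-34374919, minus strand: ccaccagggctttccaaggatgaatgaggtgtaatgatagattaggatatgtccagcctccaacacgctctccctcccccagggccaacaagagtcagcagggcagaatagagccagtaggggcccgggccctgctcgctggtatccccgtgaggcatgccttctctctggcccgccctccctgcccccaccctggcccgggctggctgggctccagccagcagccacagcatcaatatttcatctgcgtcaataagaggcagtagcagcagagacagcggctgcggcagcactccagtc
Bok, chr1:93685325-93685624, plus strand: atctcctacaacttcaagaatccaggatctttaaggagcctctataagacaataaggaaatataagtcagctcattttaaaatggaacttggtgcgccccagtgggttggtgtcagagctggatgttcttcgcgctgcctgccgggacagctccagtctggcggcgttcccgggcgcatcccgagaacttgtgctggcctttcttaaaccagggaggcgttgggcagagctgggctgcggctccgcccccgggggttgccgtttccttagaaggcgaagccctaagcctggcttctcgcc
Lmna, chr3:88503303-88503602, minus strand: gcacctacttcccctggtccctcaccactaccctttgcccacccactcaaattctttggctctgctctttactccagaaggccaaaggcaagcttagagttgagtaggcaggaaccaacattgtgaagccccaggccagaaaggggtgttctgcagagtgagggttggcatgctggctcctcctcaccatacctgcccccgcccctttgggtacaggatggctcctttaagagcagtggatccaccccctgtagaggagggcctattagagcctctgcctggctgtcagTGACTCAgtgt

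Of the supplied markers outside the rule, Krt17 and Col17a1 were called higher in all 4 libraries and Cav1 and Tnfrsf12a in 3. Krt17 had 251 CPM in Krt14-high and 47.2 CPM in Krt14-low iBC-derived cells, 1273 and 415 CPM in Krt14-high and Krt14-low endogenous cells of the iBC recipient, 1768 and 845 CPM in primary-BC-derived ones, and 2477 and 636 CPM in endogenous ones of the primary BC recipient. Cav1 had 557 CPM in Krt14-high and 442 CPM in Krt14-low iBC-derived cells, a difference of 0.33 that was not called, and was higher by 1.70 in endogenous cells of the iBC recipient, 1.34 in primary-BC-derived cells and 1.81 in endogenous cells of the primary BC recipient. Tnfrsf12a had 106 CPM in Krt14-high and 54.2 CPM in Krt14-low iBC-derived cells and 201 and 68.6 CPM in Krt14-high and Krt14-low endogenous cells of that trachea, and stood at 24.2 and 12.4 CPM in primary-BC-derived cells. In endogenous cells of the primary BC recipient it had 27.0 CPM in Krt14-high and 10.7 CPM in Krt14-low cells, but with fewer than 20 UMIs in the Krt14-high sum it was not counted as measured there. Trp63 itself differed by 0.01 to 0.37 and was called in no library.

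**Figure D2:**
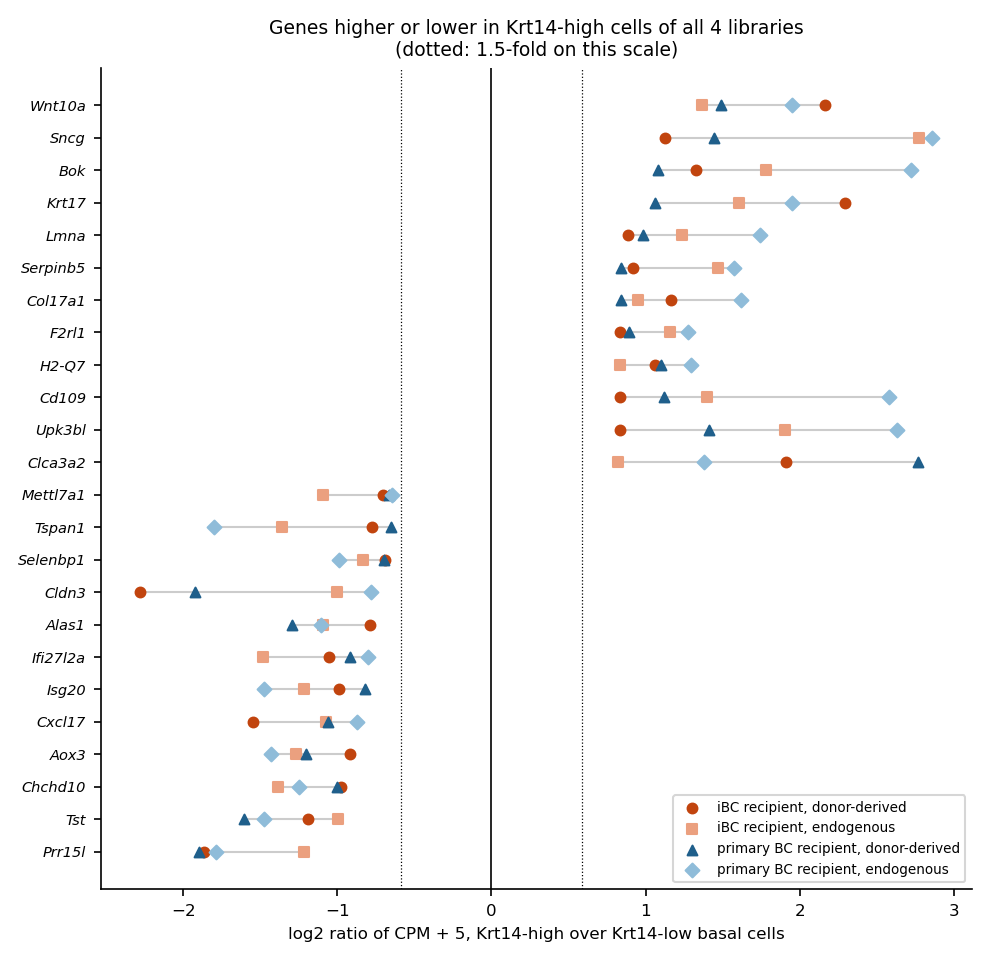
Differences between Krt14-high and Krt14-low basal cells of the same library, as log2(CPM + 5), for the 12 genes ranked highest and the 12 ranked lowest across the 4 libraries; dotted lines mark 1.5-fold. The points of Wnt10a lie between 1.36 and 2.16 in the 4 libraries and those of Prr15l between -1.90 and -1.22.

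The 27 genes called lower in Krt14-high cells include enzymes and secreted proteins of luminal airway cells, again a grouping made after the values were seen. Cyp2f2, the cytochrome P450 of club cells, had 1926 CPM in Krt14-high and 3228 CPM in Krt14-low iBC-derived cells, 3751 and 6761 CPM in Krt14-high and Krt14-low endogenous cells of the iBC recipient, 4789 and 8208 CPM in primary-BC-derived ones, and 3856 and 8086 CPM in endogenous ones of the primary BC recipient. The enzymes Cbr2, a carbonyl reductase, and Aox3, an aldehyde oxidase, were lower by 0.61 to 1.27 and by 0.92 to 1.43 on the log2 scale. Alas1, the first enzyme of heme synthesis, was lower by 0.79 to 1.29, the mitochondrial sulfurtransferase Tst by up to 1.60, and the tight junction protein Cldn3 by 0.78 to 2.28. Ltf, lactotransferrin, an iron-binding antimicrobial protein, had 4.69 CPM in Krt14-high and 242 CPM in Krt14-low iBC-derived cells, and 112 and 682 CPM in Krt14-high and Krt14-low primary-BC-derived cells. Prr15l ranked first among the lower genes outside the marker lists, with 4.45 CPM in Krt14-high and 29.4 CPM in Krt14-low iBC-derived cells.

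Secretory marker RNA lay on the lower side too. The list includes the 4 secretory genes that the rule limits in both classes. Its counts and sums are therefore a description and not a finding. Of measured secretory markers, 6 of 6 were called lower in iBC-derived cells, 6 of 8 in endogenous cells of the iBC recipient, 8 of 9 in primary-BC-derived cells and 6 of 8 in endogenous cells of the primary BC recipient. The summed secretory markers stood at 4434 CPM in Krt14-high and 9507 CPM in Krt14-low iBC-derived cells, 12223 and 17302 CPM in Krt14-high and Krt14-low endogenous cells of the iBC recipient, 11788 and 24521 CPM in primary-BC-derived ones, and 10036 and 24813 CPM in endogenous ones of the primary BC recipient. With the limit on the 4 secretory genes lowered from 500 to 100 per 10000 UMIs, 25 genes were called higher in all 4 libraries, of which 19 were among the 26, and 8 were called lower, of which 5 were among the 27. The stricter limit also changed which cells and how many UMIs entered the sums, and the part of secretory RNA in the lower calls was not tested. With cells assigned to the classes after thinning to 2500 UMIs, 24 genes were called higher, 21 of them among the 26, and 17 lower, 15 of them among the 27.

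The gene lists were described by their counts, to be read against the shares of all genes above. Of measured cell cycle members, 13 of 18 were called higher in iBC-derived cells (median 1.37), 7 of 11 in endogenous cells of the iBC recipient (median 0.69), 8 of 18 in primary-BC-derived cells (median 0.53) and 13 of 17 in endogenous cells of the primary BC recipient (median 0.96). Lower calls were 0, 0, 0 and 1 in the same order. The helicase subunit Mcm3, which loads at replication origins, had 126 CPM in Krt14-high and 30.1 CPM in Krt14-low endogenous cells of the primary BC recipient and 49.2 and 17.4 CPM in Krt14-high and Krt14-low primary-BC-derived cells. Few cells carried the mitotic genes: barcodes with at least 5 UMIs over 7 proliferation genes made up 9 of 321 Krt14-high (2.80%, 1.29 to 5.26) and 1 of 387 Krt14-low iBC-derived cells (0.258%, 0.00654 to 1.43). They made up 5 of 250 Krt14-high and 9 of 822 Krt14-low primary-BC-derived cells, 1 of 93 and 5 of 714 Krt14-high and Krt14-low endogenous cells of the iBC recipient, and 3 of 37 and 11 of 582 of the primary BC recipient. The intervals of Krt14-high and Krt14-low cells overlapped in all 4 libraries.

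Wound-edge genes, a list of injury and migration genes, had 5 of 24 members called higher in iBC-derived cells, 9 of 26 in endogenous cells of the iBC recipient, 8 of 26 in primary-BC-derived cells and 13 of 25 in endogenous cells of the primary BC recipient, and none called lower. Tnc, the matrix protein tenascin C, had 56.6 CPM in Krt14-high and 17.3 CPM in Krt14-low iBC-derived cells and 72.2 and 5.90 CPM in Krt14-high and Krt14-low endogenous cells of that trachea. In the endogenous cells of the primary BC recipient it had 50.5 CPM in Krt14-high and 0.917 CPM in Krt14-low cells. The hemidesmosome and integrin list had 2 of 13, 4 of 12, 3 of 12 and 5 of 10 members called higher and none lower in the iBC-derived, iBC-recipient endogenous, primary-BC-derived and primary-BC-recipient endogenous libraries. The squamous and hillock list had 4 of 11, 6 of 11, 7 of 15 and 8 of 12 called higher, and 1, 1, 0 and 1 called lower. Sfn, the 14-3-3 protein of stratified epithelia, was called higher in both libraries of the iBC recipient, by 0.96 in donor-derived and 0.90 in endogenous cells. Targets of YAP, the mechanosensitive coactivator that pairs with TEAD factors, had 0 of 18, 1 of 16, 0 of 14 and 0 of 13 members called higher in the same 4 libraries, and 0, 0, 0 and 2 called lower. Glutathione and xenobiotic genes ran the other way, with 6 of 26, 13 of 32, 12 of 32 and 11 of 32 members called lower and 0, 1, 0 and 2 called higher.

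Class II histocompatibility genes could be measured mainly in the iBC recipient. In iBC-derived cells 7 of 8 were called higher in Krt14-high cells (median 0.71), and in endogenous cells of that trachea 3 of 4 (median 0.66), while each library of the primary BC recipient had 1 measured. Cd74, the invariant chain that guides class II molecules to peptide loading, had 3130 CPM in Krt14-high and 1724 CPM in Krt14-low iBC-derived cells and 601 and 380 CPM in Krt14-high and Krt14-low endogenous cells of that trachea. In the primary BC recipient it had 49.2 and 14 CPM in Krt14-high and Krt14-low donor-derived cells and 39.7 and 60.9 CPM in endogenous ones. In ciliated cells of the iBC-derived library a Cd74 UMI was present, after thinning, in 72.6% of cells, against 79.4% of its Krt14-high and 70% of its Krt14-low basal cells.

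**Figure D3:**
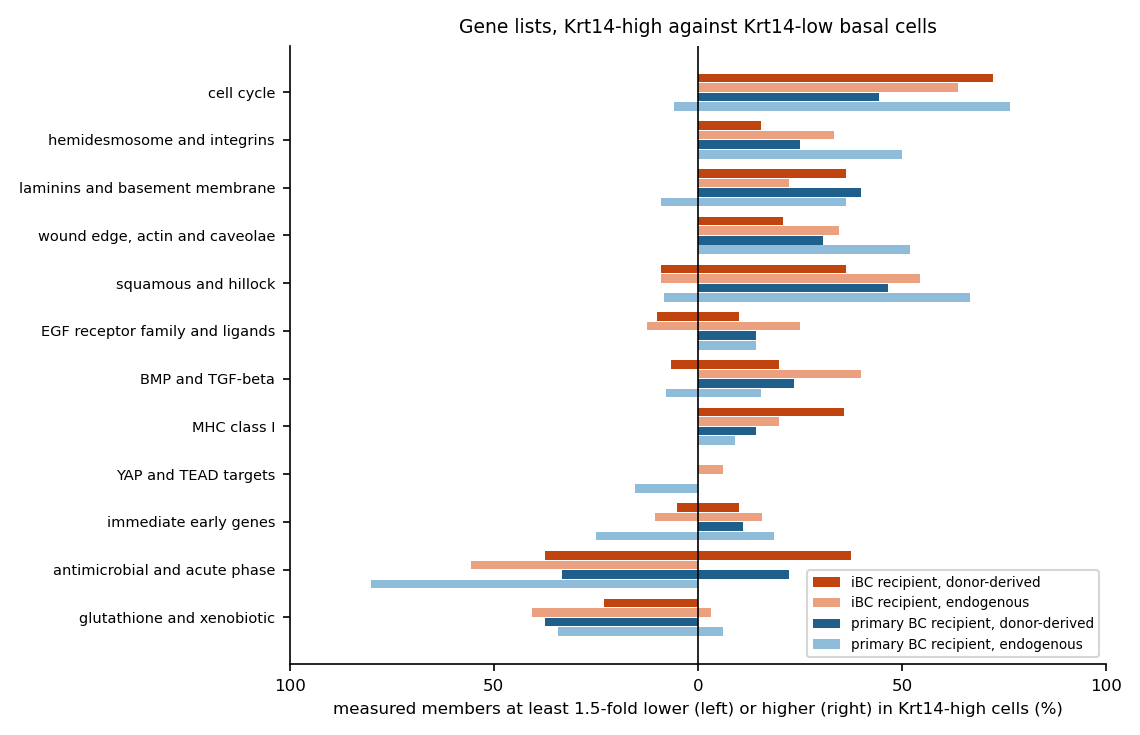
Percent of the measured members of 12 gene lists called lower (left of 0) or higher (right of 0) in Krt14-high against Krt14-low basal cells, with 1 bar per library. Cell cycle, wound-edge and squamous bars point mostly right, with 13 of 17 cell cycle members called higher in endogenous cells of the primary BC recipient, and glutathione bars point mostly left.

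Within the Krt14-high cells themselves, cells were binned by Krt14 at 10, 20, 40 and 80 per 10000 UMIs, and bins of at least 9 cells were kept. Krt17 increased over the bins of iBC-derived cells, with 120, 209, 457 and 971 CPM in 112, 140, 60 and 9 cells, and its interval in the last bin (804 to 1163) lay above that in the first (102 to 140). In primary-BC-derived cells Krt17 had 1315, 1742, 2091 and 5822 CPM in 124, 88, 28 and 10 cells. Endogenous cells of the iBC recipient had 1156, 1250 and 1847 CPM in 50, 32 and 11 cells, whereas those of the primary BC recipient had 1912 and 1534 CPM in 15 and 15 cells, the opposite order. Cyp2f2 decreased along the bins in every library, with 2530, 1790, 1328 and 1251 CPM in iBC-derived cells and 5601, 4438, 3799 and 1570 CPM in primary-BC-derived cells. Cav1 was nearly level in iBC-derived cells, with 535, 538, 629 and 609 CPM, and stepped up in primary-BC-derived cells, with 224, 285, 662 and 954 CPM. Tnfrsf12a stood at 19.7, 18.7, 24.3 and 113 CPM in primary-BC-derived cells, where the last bin's interval (63.1 to 186) lay above the first bin's (13.0 to 28.7). Wnt10a had 48.5, 81.7, 162 and 255 CPM in iBC-derived cells and no steady order in primary-BC-derived cells, with 101, 151, 97.1 and 270 CPM. The median depth per cell also increased over the bins of iBC-derived cells, with 8970, 10402.5, 11606.5 and 12632 UMIs. It increased likewise in primary-BC-derived cells, with 10236, 10667.5, 11789 and 13832.5 UMIs. In endogenous cells it was 7758, 8534.5 and 8819 UMIs in the iBC recipient and 14189 and 12328 UMIs in the primary BC recipient. The part of depth in these slopes was not tested.

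**Figure D4:**
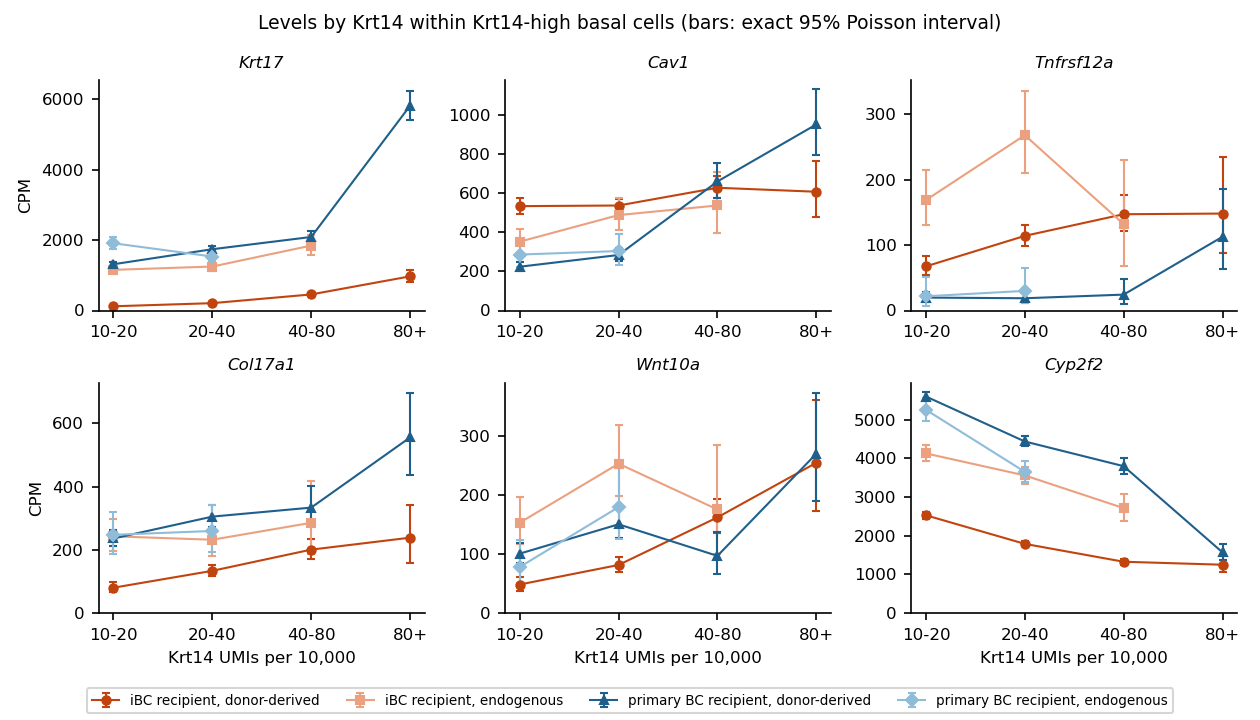
CPM of Krt17, Cav1, Tnfrsf12a, Col17a1, Wnt10a and Cyp2f2 (linear axis) in Krt14-high cells binned by Krt14 per 10000 UMIs, with exact Poisson 95% intervals, 1 line per library, for bins of at least 9 cells. Krt17 climbs to 971 CPM in iBC-derived and 5822 CPM in primary-BC-derived cells of the last bin, while Cyp2f2 declines in every library.

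The next comparison asks how donor-derived Krt14-high cells differ from endogenous Krt14-high cells of the same trachea. In the iBC recipient 773 of 6469 measured genes were called higher (11.9%) and 337 lower (5.21%) in iBC-derived cells, and in Krt14-low basal cells of the same libraries 8.24% were called higher and 5.61% lower. The median of all genes lay at 0.12, or at 0.05 with TMM scaling, under which 646 genes were called higher and 400 lower, a share of higher calls of 61.8% against 69.6% as counted here.

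Among antigen presentation genes, 8 of 8 measured class II genes were called higher in iBC-derived cells, with a median of 2.21, and 9 of 15 class I genes, with a median of 0.79, against 0.12 over all genes. Within the endogenous library 4 class II genes were measured. The others of the 8 counted as measured only through the iBC-derived sum, where they are high, so the class II count and median are a description. Cd74 had 3130 CPM in iBC-derived and 601 CPM in endogenous members, 5.21-fold higher (4.74 to 5.73), and H2-Eb1, the class II beta chain, had 867 CPM in iBC-derived and 105 CPM in endogenous members, 8.26-fold higher (6.61 to 10.4). Ciita, the master regulator of class II genes, had 33.4 CPM, from 65 of 321 cells, against 6.56 CPM, 5.08-fold higher (2.13 to 15.9). B2m, the class I light chain, had 1914 CPM in iBC-derived and 958 CPM in endogenous members. Krt14-low cells of the same libraries showed the same side for Cd74, with 1724 CPM in iBC-derived and 380 CPM in endogenous cells. Of interferon-stimulated genes, 8 of 21 were called higher and 2 lower. The interferon-induced GTPase Iigp1 had 314 CPM, from 110 cells, in iBC-derived members and 30.2 CPM in endogenous members. Cxcl9, an interferon-gamma-induced chemokine, had 56.3 CPM in iBC-derived members, but 76.8% of its UMIs came from 3 cells, against 0 UMIs in endogenous members.

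Among single genes, Cryab, a small heat shock protein, had 203 CPM in iBC-derived members, with a UMI in 179 of 321 cells, and 3.94 CPM in endogenous members, from 3 UMIs, a ratio of 51.6 (17.6 to 251). Its relative Hspb1 lay on the other side, with 9.64 CPM in iBC-derived and 383 CPM in endogenous members, 39.8-fold lower (28.4 to 57.1). Cdkn2a, whose products p16 and ARF restrain the cell cycle, had 66.7 CPM, from 148 of 321 cells, in iBC-derived members and 0 UMIs in endogenous members, at least 16.9-fold higher against the floor of 3 UMIs in the endogenous sum. Thinned to 2500 UMIs, a Cdkn2a UMI was present in 17.4% of Krt14-high, 16.5% of Krt14-low and 29.3% of ciliated iBC-derived cells. No class of that library is known to lack Cdkn2a, so the share that free RNA would give was not measured. In the primary BC recipient Cdkn2a had 21.1 CPM in donor-derived and 1.80 CPM, from 1 UMI, in endogenous members. Gata6, a transcription factor of lung endoderm, had 130 CPM, from 228 cells, in iBC-derived and 11.8 CPM in endogenous members, 11-fold higher (5.78 to 24.3). Foxq1, a forkhead factor, had 277 CPM in iBC-derived and 34.1 CPM in endogenous members, and Id1, a target of BMP signals, 364 and 86.6 CPM. Ly6d, a surface protein of stratified epithelia, had 3417 CPM in iBC-derived and 661 CPM in endogenous members. The cystine transporter Slc7a11 had 69.7 CPM from 51 cells in iBC-derived members and 1.31 CPM, from 1 UMI, in endogenous members, a ratio of 53.1 (9.45 to 2105).

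Several genes that mark tracheal basal cells were lower in iBC-derived Krt14-high cells. Krt17 had 251 CPM in iBC-derived and 1273 CPM in endogenous members, 5.08-fold lower (4.65 to 5.55), and in the primary BC recipient, with 1768 CPM in primary-BC-derived and 2477 CPM in endogenous members, it was not called. Aqp3, a water and glycerol channel of basal cells, was 2.74-fold lower, with 229 CPM in iBC-derived and 626 CPM in endogenous members, and the neurotrophin receptor Ngfr 2.66-fold lower, with 26.7 CPM and 70.9 CPM. Lgr6, a receptor of R-spondins, had 1.48 CPM in iBC-derived and 45.9 CPM in endogenous members, 31.0-fold lower (12.9 to 90.1). The desmosomal cadherin Dsc3 had 3 UMIs in 2 iBC-derived cells, 0.741 CPM, against 44.6 CPM in endogenous members, 60.2 times as much (18.9 to 306). Of the basal identity list 8 of 20 members were called lower and 3 higher. Regional transcription factors had 8 of 19 members called lower and 5 higher: Irx1, an Iroquois factor, had 0.988 CPM in iBC-derived and 56.4 CPM in endogenous members, and Sox9, a factor of distal lung buds and glands, had 3.71 CPM and 70.9 CPM. Id4, a relative of Id1, had 4.94 CPM in iBC-derived and 97.1 CPM in endogenous members, 19.6-fold lower (11.9 to 34.0).

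Other genes named as lower in iBC-derived members have varied roles. Sult1d1, a sulfotransferase, had 28.7 CPM in iBC-derived and 657 CPM in endogenous members, 22.9-fold lower (18.7 to 28.3), and Abi3bp, a matrix protein, 47.4 CPM and 878 CPM, 18.5-fold lower (15.7 to 21.8). Reg3g, an antibacterial lectin, had 3.71 CPM in iBC-derived and 210 CPM in endogenous members, and F3, tissue factor, which starts clotting, 74.6 CPM and 576 CPM. Vsnl1, a calcium sensor, had 2 UMIs in iBC-derived members, 0.494 CPM, against 90.5 CPM in endogenous members, 183 times as much (48.8 to 1543). Glutathione and xenobiotic genes had 12 of 28 measured members called lower and 2 higher. Ly6k, with 2.22 CPM in iBC-derived and 211 CPM in endogenous members, belongs to a family of near-identical genes whose reads may be split between copies. The summed secretory markers lay lower too, with 4434 CPM in iBC-derived and 12223 CPM in endogenous members, and their part in these differences was not tested.

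Cell cycle genes in this comparison rested in part on few cells. Of 20 measured, 7 were called higher and 2 lower in iBC-derived members, with a median of 0.48, and with the cycling cells left out the median was -0.16. The cycling cells, 9 of 321 iBC-derived and 1 of 93 endogenous members, were marked by at least 5 UMIs over 7 proliferation genes. A lower median without them was therefore partly built in, and it is no test. Mki67, a marker of dividing cells, had 80.6 CPM in iBC-derived members, 75% of it from 3 cells, and 13.1 CPM in endogenous members.

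**Figure D5:**
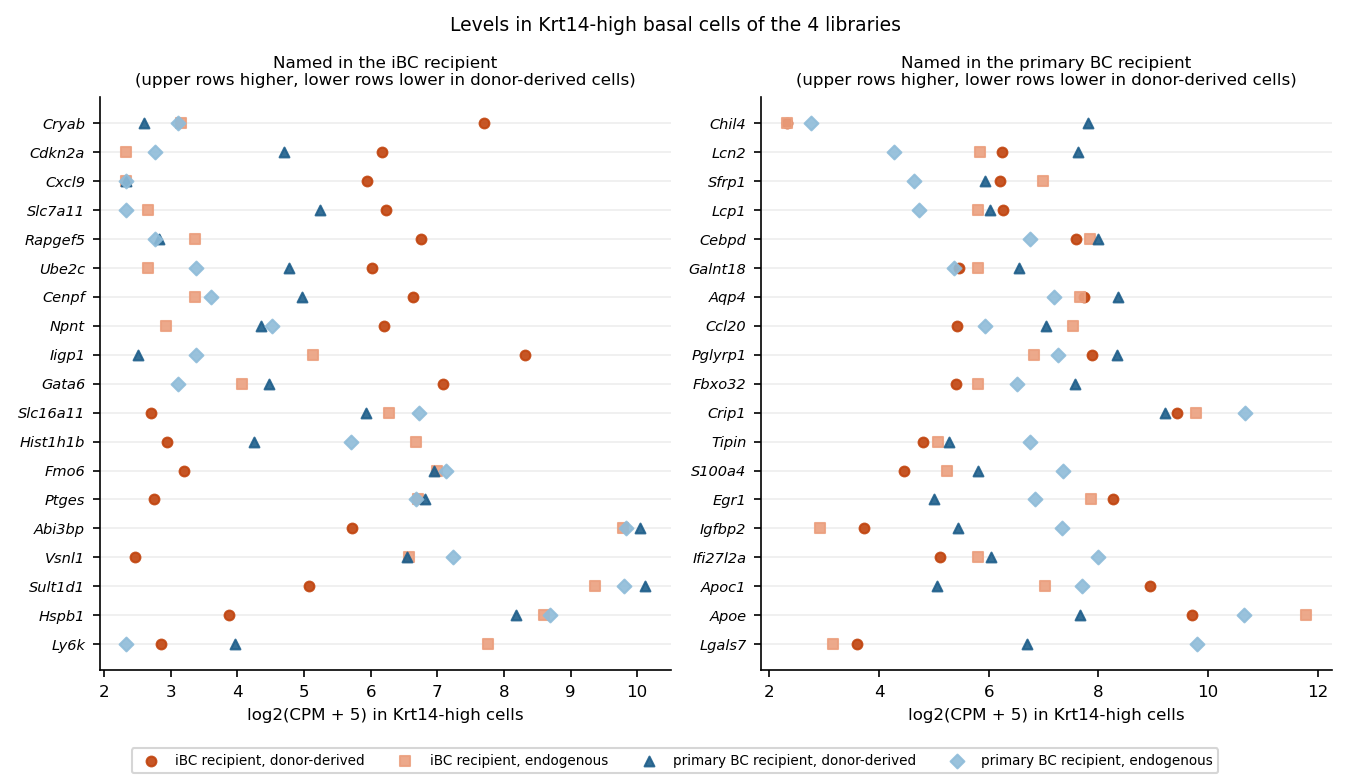
Levels, as log2(CPM + 5), of the genes ranked highest and lowest between donor-derived and endogenous Krt14-high cells of each recipient, in all 4 libraries. Cryab stands apart in iBC-derived members (203 CPM against 3.94 CPM or less in the other 3 sums), and Apoe is lowest in primary-BC-derived members (197 CPM).

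In the primary BC recipient fewer genes separated donor-derived from endogenous Krt14-high cells: 209 of 6340 measured genes were called higher (3.3%) and 190 lower (3%), and among Krt14-low cells of these libraries 0.795% were called higher and 1.07% lower. The endogenous side is 37 cells, so single cells weigh on it. Class I genes had 0 of 14 members called in either direction and interferon-stimulated genes 0 higher and 1 lower of 13.

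The genes ranked lowest in primary-BC-derived Krt14-high cells include a pair of apolipoproteins. Apoe, the apolipoprotein of lipid transport, had 197 CPM in primary-BC-derived and 1603 CPM in endogenous members, 8.13-fold lower (7.31 to 9.05), with a UMI in 36 of 37 endogenous cells. In the iBC recipient it stood at 830 CPM in iBC-derived and 3519 CPM in endogenous members, the same side. Apoc1, a smaller apolipoprotein, had 28.5 CPM in primary-BC-derived and 204 CPM in endogenous members, and lay on the opposite side in the iBC recipient, with 487 CPM in iBC-derived and 125 CPM in endogenous members. Lgals7, a galectin of stratified epithelia, had 98.4 CPM in primary-BC-derived and 880 CPM in endogenous members, 8.94-fold lower (7.70 to 10.4), but 68.6% of its endogenous UMIs came from 3 of the 10 cells that carried it. Igfbp2, a binding protein of insulin-like growth factors, was 4.09-fold lower, and Egr1, an immediate early factor, had 27.1 CPM in primary-BC-derived and 110 CPM in endogenous members. Tnc had 12.7 CPM in primary-BC-derived and 50.5 CPM in endogenous members, 3.99-fold lower, and Tpm2 was 2.08-fold lower.

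DNA replication genes lay on the same side. Of 18 measured cell cycle genes 9 were called lower and 2 higher in primary-BC-derived members, with a median of -0.53, against 0.03 over all genes. Mcm6 had 75.9 CPM in primary-BC-derived and 155 CPM in endogenous members, Mcm3 49.2 CPM and 126 CPM, and Pcna, the replication clamp, 36.2 CPM and 84.7 CPM. With the cycling cells left out the median was also -0.53.

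Antimicrobial genes had 5 of 9 measured members called higher and 1 lower in primary-BC-derived members. Lcn2, lipocalin 2, which withholds iron from bacteria, had 194 CPM in primary-BC-derived and 14.4 CPM in endogenous members, 13.4-fold higher (6.77 to 31.3), with 42.1% of its donor-derived UMIs in 3 of 66 cells. Pglyrp1, a peptidoglycan recognition protein, had 319 CPM in primary-BC-derived and 148 CPM in endogenous members, but with members taken from a Krt14 of at least 5 its log2 difference was -0.079. Chil4, a chitinase-like protein, had 219 CPM in primary-BC-derived members, 86.1% of it from 3 of 12 cells, and 1.80 CPM, from 1 UMI, in endogenous members, a ratio of 122 (21.8 to 4812). More evenly spread were Aqp4, a water channel, 2.29-fold higher (1.82 to 2.93) with 322 CPM in primary-BC-derived and 141 CPM in endogenous members, and Cebpd, an inflammation-responsive factor, 2.43-fold higher (1.85 to 3.24) with 250 CPM and 103 CPM. Sfrp1, a secreted Wnt antagonist, had 55.9 CPM in primary-BC-derived and 19.8 CPM in endogenous members.

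Setting the donor-derived Krt14-high cells of the recipients beside each other, 771 of 6939 measured genes were called higher in iBC-derived than in primary-BC-derived members (11.1%) and 736 lower (10.6%). Class II genes were called higher in 8 of 8 measured, with a median of 4.66, and class I genes in 12 of 14, with a median of 1.72. Within the primary-BC-derived library 1 class II gene was measured. The others of the 8 counted as measured only through the iBC-derived sum, where they are high, so their count and median are a description. H2-Eb1 had 867 CPM in iBC-derived and 3.16 CPM in primary-BC-derived members, and Cd74 was 63.6-fold higher (53.9 to 75.7), with 3130 CPM and 49.2 CPM. Krt14-low cells of these libraries gave 10.2% higher and 10.2% lower calls. Between endogenous members, 297 of 5365 genes were called higher (5.54%) and 461 lower (8.59%) in the iBC recipient than in the primary BC recipient, against 3.08% and 5.03% in Krt14-low endogenous cells. Class II genes were called higher in 4 of 4 measured there, and Cd74 was 15.2-fold higher (9.89 to 24.4), with 601 CPM (iBC recipient) against 39.7 CPM (primary BC recipient). With TMM scaling the endogenous counts were 429 higher and 337 lower, so that the higher share of calls was 56.0% against 39.2% as counted here. Tnfrsf12a was 7.42-fold higher (4.36 to 13.6) in endogenous members of the iBC recipient, with 201 CPM, than in those of the primary BC recipient, with 27.0 CPM.

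On the lower side of the donor comparison, glutathione and xenobiotic genes had 17 of 29 members called lower in iBC-derived members and 1 higher, with a median of -1.15. Cdo1, which degrades cysteine, had 1.48 CPM in iBC-derived and 189 CPM in primary-BC-derived members, and Lgr6 1.48 CPM and 127 CPM, 85.8-fold lower (39.0 to 235). Secreted proteins linked to senescence had 7 of 11 members called lower and 2 higher in iBC-derived members. Between the endogenous members, cell cycle genes had 9 of 15 called lower and 0 higher in the iBC recipient, with a median of -1.26. Values of genes with near-identical copies are uncertain, since the handling of reads that match several copies is not given in the sources used here. Among them Ftl1-ps1, a ferritin pseudogene, had 850 CPM in iBC-derived and 7.73 CPM in primary-BC-derived members, and 1058 CPM and 7.21 CPM in endogenous members of the iBC and primary BC recipients, while Rpl29, a ribosomal protein, had 89.9 CPM and 1196 CPM in the donor-derived and 91.9 CPM and 1293 CPM in the endogenous members of those recipients.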

How the data were processed

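The deposited files are UMI counts per gene and barcode from 10x Chromium libraries, 1 per group. The build was GRCm38, and STARsolo, Cell Ranger and Seurat are the tools named, per the submitters' processing notes. Which tool made the counts, and whether counting used strand or reads of near-identical genes, is not given in the sources used here. From these counts, barcodes passing the rule were summed per library with Python 3.11.15, numpy 2.4.6, scipy 1.17.1 and pandas 2.3.3, and scaled to CPM. Sums held 554712 to 4046977 UMIs. A gene counted as measured where 1 of the sums held 20 CPM or more and 20 UMIs or more. A gene was called at 1.5-fold on log2(CPM + 5) with an exact conditional 95% ratio interval excluding 1. The calls were tested on simulated data. With 1 library per group no p-value was computed.

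Of 30907 features 30766 matched GENCODE vM21, and 89 of 127 features with a shared symbol took their gene ID's name. Named genes are the 10 highest and 10 lowest per comparison with at least 50 CPM, 50 UMIs, 2-fold and an interval bound of 1.5-fold (12 each for Krt14-high against Krt14-low), the supplied markers and the leading members of 44 lists of 796 genes, 5 of them unmatched. Others were chosen after their values were seen. Members and lists were chosen with earlier results of these data known. Doublets were marked with scanpy 1.11.5 (Scrublet) and kept, 11 to 56 barcodes per library. TMM factors came from edgeR 4.0.16. Figures used matplotlib 3.10.9. Results for some genes are not reported here.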

Additional observations from a re-analysis of the deposited data

Results flagged for a closer look

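Of 5801 genes measured in Krt14-high cells of both recipients, 40 were called in opposite directions between donor-derived and endogenous cells. The named ones follow, each with its donor-minus-endogenous log2 difference in the iBC recipient and then in the primary BC recipient; the difference between recipients was not tested. Apoc1, an apolipoprotein, differed by 1.92 in the iBC recipient and by -2.64 in the primary BC recipient. Ccl20, a chemokine for lymphocytes and dendritic cells, differed by -2.10 and 1.12, the second resting on 28 cells; with members taken from a Krt14 of at least 5 the second was -0.85, on the same side as the first. Lgr6, an R-spondin receptor, differed by -2.97 and 0.71, and Sfrp1, a Wnt antagonist, by -0.79 and 1.29. Cdo1, which degrades cysteine, differed by -2.64 and 0.61, and Ugt2b34, a glucuronosyltransferase with close relatives, by -2.74 and 0.59. Krt6a, a keratin of wounded epithelium with a near-identical partner, differed by 1.20 and -1.13, and Sncg, a synuclein, by 0.79 and -0.90.

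A red fluorescent reporter, MCHERRY-FRT, which enters no comparison of the report, had 15.6 CPM, from 63 UMIs, in iBC-derived Krt14-high cells and 0 UMIs in the other 3 sums.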

How the results depend on the processing

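No paired analysis was possible because each group is 1 library and no test was run. Each setting changed 1 choice, except that the stricter filter asked for at least 100 CPM and 100 UMIs together (written as 100 CPM) and the wider Krt14 contrast moved both its cutoffs. Between donor-derived and endogenous members of the iBC recipient, higher calls were 495 with a pseudocount of 20 CPM; higher and lower calls were 161 and 70 at 100 CPM and 320 and 155 at 2-fold, and lower calls were 801 without a filter. For the primary BC recipient the counts were 111 and 115 with a pseudocount of 20, 35 and 16 at 100 CPM and 65 and 61 at 2-fold; lower calls were 427 without a filter, and higher calls were 127 at Krt14 of at least 5 and 126 with the top 5% of cells of each gene left out. Between donor-derived members they were 486 and 486, 191 and 186, and 336 and 358 under those 3 settings, and 1207 and 1381 without a filter. Between endogenous members they were 67 and 73 at 100 CPM, 196 and 286 at Krt14 of at least 20 and 152 and 196 at 2-fold; lower calls were 741 without a filter, and higher calls 161 without the top 5% of cells. For Krt14-high against Krt14-low cells, calls in all 4 libraries were 8 and 12 at 100 CPM and 5 and 3 at 2-fold; higher calls were 47 for Krt14 of at least 20 against below 5, and lower calls were 8 with secretory genes below 100 and 17 with cells assigned after thinning. Shares of barcodes were 13.1%, 2.27%, 6.72% and 1.55% at Krt14 of at least 20 and 24.9%, 7.77%, 20.7% and 4.36% at Krt14 of at least 5, in the iBC-derived, iBC-recipient endogenous, primary-BC-derived and primary-BC-recipient endogenous libraries. With secretory genes below 100 they were 3.86% for endogenous cells of the iBC recipient and 11.1% for primary-BC-derived cells.

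Changed signs of named genes, and of list medians past 1.5-fold, were few, and the cause was not tested. Cenpf was -0.0075 in the iBC recipient, and S100a4 was 0.22 in the primary BC recipient, with cycling cells left out. Ccl20 was -0.85 and Pglyrp1 -0.079 in the primary BC recipient at Krt14 of at least 5. The EGF list's median was -0.066 between donor-derived members with the top 5% of cells left out, and the antimicrobial list's median between endogenous members was -0.33 at 100 CPM and -0.064 at Krt14 of at least 20. Of the other values under an alternative, 108 of the counts and 14 of the shares stayed within 1.5-fold or the interval. A count that stayed can still hold other genes. At Krt14 of at least 20, 162 of the 337 lower calls of the iBC recipient were kept. Of the 209 higher calls of the primary BC recipient 106 were kept. Between donor-derived members 649 of 771 higher and 648 of 736 lower calls were kept at that cutoff. Of the values of named genes 1204 stayed, 280 moved and 4 changed sign. Of the list medians 1936 stayed, 221 moved and 3 changed sign, where a sign change was counted only for medians past 1.5-fold. Smaller medians that crossed 0 are not among these 3. With cycling cells left out, the cell cycle median was -0.16 against 0.48 in the iBC recipient. Between donor-derived members it was -0.77 against 0.06. Proliferation genes marked the cells left out, so these falls were partly built in. Settings with a 100 CPM filter test fewer genes. The 37 endogenous cells of the primary BC recipient, with 554712 UMIs, limit that side most: 3 UMIs there make 5.41 CPM.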

Other observations

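Several lists not described above follow for Krt14-high against Krt14-low cells. Immediate early genes had 2, 3, 2 and 3 members called higher and 1, 2, 0 and 4 called lower of 20, 19, 18 and 16 measured, in the iBC-derived, iBC-recipient endogenous, primary-BC-derived and primary-BC-recipient endogenous libraries. Fos, a component of AP-1, was called higher in the endogenous cells of the primary BC recipient alone, with 180 CPM in Krt14-high and 89.9 CPM in Krt14-low cells. Serpins and other protease inhibitors had 6 of 13, 3 of 13, 4 of 14 and 5 of 13 members called higher and 0, 0, 0 and 1 called lower in those libraries. Genes encoded by mitochondrial DNA had 13 measured members, of which 0 were called higher in any library and 1 was called lower in endogenous cells of the iBC recipient, with medians between -0.30 and -0.17.

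Alveolar markers were called higher in iBC-derived than in endogenous Krt14-high cells of that trachea in 5 of 6 measured members, against 11.9% of all measured genes. Of the 10 listed markers, 4 had 0 UMIs in the endogenous sum. Members such as Sftpb and Sftpc counted as measured only through the iBC-derived sum, where they are high, so this count is a description. Sftpb, surfactant protein B, had 76.6 CPM in iBC-derived and 11.8 CPM in endogenous members, and Sftpc, surfactant protein C, had 29.2 CPM in iBC-derived Krt14-high cells and 227 CPM in iBC-derived Krt14-low cells. The long noncoding RNA Kcnq1ot1, made from the imprinted Kcnq1 locus and antisense to Kcnq1, had 600 CPM in iBC-derived and 232 CPM in endogenous members, 2.58-fold higher; whether counting used strand is not given in the sources used here.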
